A study of Mus musculus with 18 samples.

Results

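The aminoacyl-tRNA synthetases were followed as 35 genes, named from a list of 34 symbols and the methionine enzyme Mars, in RNA-seq counts of mouse bone-marrow-derived macrophages. All 35 were found among the 22598 genes of the count files: 19 genes of cytosolic enzymes and 16 genes of mitochondrial enzymes, whose symbols end in 2. Macrophages grown from bone marrow (BMDMs, cell type given as WT) were left as control or treated for 18 h, with 3 libraries in each of 6 groups. The treated groups received interferon-gamma (IFNg), a T cell and NK cell cytokine that primes macrophages, either alone or with 1 of 4 additions. The additions were tumour necrosis factor (TNF, written TNFa in the series design and in 1 title), interleukin-1 beta (IL1b), the bacterial component lipopolysaccharide (LPS), and hypoxia. Every group with an addition also received IFNg, so no addition was measured without it, and no label gives a dose or an oxygen level. The labels give no strain, age or sex, and nothing in them ties the 3 libraries of a group to different animals or cultures, so p-values reflect the spread among these libraries, which may be technical.

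Each aminoacyl-tRNA synthetase joins 1 amino acid, or a pair of them in the case of Eprs, to its tRNAs, and so supplies the charged tRNAs that ribosomes read. Animal cells keep one set of these enzymes in the cytosol and another, also encoded in the nucleus, in the mitochondrion, where a separate ribosome translates the few proteins of the mitochondrial genome. Kars and Gars encode both the cytosolic and the mitochondrial enzyme for lysine and glycine from 1 gene each, and were counted here as cytosolic. In the cytosol, the enzymes encoded by Dars, Eprs, Iars, Kars, Lars, Mars, Qars and Rars assemble into the multi-synthetase complex on the scaffold proteins Aimp1, Aimp2 and Eef1e1, while the other 11 work outside it. Many cytosolic synthetase genes are known targets of ATF4, the transcription factor that is translated when amino acids run short or when other stresses phosphorylate eIF2alpha. ATF4 binds with a C/EBP partner to an element of the form TGATGNAA.

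The letters of that element are shown first because the genes that carry it include Aars, whose level moved in 4 of the 5 main comparisons. Rars and Vars were also called in 4 of the 5, and no window was used for either. A link between the letters and the calls was not tested. Promoter windows from 250 bases before to 50 bases after the start of transcription (RefSeq, GRCm38.p6) were matched for 26 of the 35 genes, and TGATGNAA was searched on both strands. It was found in 5 of the 12 cytosolic promoters matched, those of Aars, Gars, Iars, Tars and Yars, and in 0 of the 14 mitochondrial ones. Of all 27025 genes with a window in the table, 4.51% held a match. A match of each gene is printed below with flanking bases, 30 in all, 5′ to 3′ on the strand of the gene, with the 8 matched bases in capitals.
Aars: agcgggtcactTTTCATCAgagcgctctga
Gars: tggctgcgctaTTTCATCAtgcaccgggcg
Iars: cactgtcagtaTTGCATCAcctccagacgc
Tars: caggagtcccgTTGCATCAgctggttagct
Yars: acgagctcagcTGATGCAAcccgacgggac
In the first 4 of these the element reads in its reverse complement, TTNCATCA, and in Yars it reads as given. The Aars window lies at chr8:111033840-111033869 on the plus strand, where GENCODE M21 annotates exon and UTR, and its match starts 10 bases after the RefSeq start. The Gars window is chr6:55037960-55037989 (plus strand), upstream of the gene, with its match 30 bases before the start. The Iars window is chr13:49682126-49682155 (plus strand), in an exon and UTR, with its match 8 bases after the start. The Tars window is chr15:11399655-11399684 (minus strand), upstream of the gene, with its match 15 bases before the start. The Yars window is chr4:129189895-129189924 (plus strand), in an exon, with its match 4 bases after the start. A match describes letters only and is not a measured binding site. No window was used for Cars, Hars, Hars2, Lars, Mars, Nars, Pars2, Rars or Vars.

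The count files held between 12270565 and 20952799 counts per library, and all 35 genes were among the 11563 that passed a filter on low counts. Levels are given as CPM, counts scaled to the same library total over the tested genes after TMM scaling (a trimmed mean of M-values, which equalises libraries on the bulk of their genes). A total of 3 counts corresponded to between 0.151 and 0.255 CPM in a library. Differences are log2 fold changes from edgeR's quasi-likelihood test, called at a Benjamini-Hochberg adjusted p under 0.05 over all tested genes. TMM matters for the direction of small changes. When libraries were scaled instead by the totals that the deposited RPKM values imply, the median gene shifted by -0.15 for IFNg against control, -0.32 for TNF, -0.08 for LPS, -0.25 for hypoxia and 0.01 for IL1b (log2). Counts of calls under that scaling are given, where they differ, as the RPKM-total counts. Over all tested genes that scaling called 1207 higher and 1796 lower with IFNg against control, and 1685 and 3985 with TNF. The counts were 962 and 1441 with LPS, 888 and 2564 with hypoxia and 35 and 5 with IL1b. All 8 macrophage markers of a list had counts in every group, at a summed level of 13280 to 26870 CPM over the libraries. That sum covers opposite changes. With IFNg 2 were called higher and 5 lower. With TNF Cd14, Mertk and Csf1r rose and Adgre1, Cd68, Fcgr1 and Lyz2 fell. With LPS 3 rose and with hypoxia 4, and 0 fell. RPKM-total counts were 2 and 6 with IFNg, 2 and 1 with LPS and 3 and 0 with hypoxia. Shares over all tested genes called higher were 13.5%, 22.1%, 10.2% and 13.5% with IFNg, TNF, LPS and hypoxia. Shares called lower were 10%, 22.6%, 10.1% and 11.8%. In bulk RNA, fewer cells of a type and less RNA per cell cannot be told apart.

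Per kilobase of coding length, the scale on which genes can be compared with each other, the cytosolic genes stood above the mitochondrial ones. Their mean levels over the 18 libraries ran from 20.3 to 155.8 CPM per kb with a median of 43.4, against 1.89 to 28.0 with a median of 6.48 for the mitochondrial genes. Of the 19 highest genes, 17 were cytosolic, and Iars2 and Fars2 were the mitochondrial genes among them. Nars, the asparagine enzyme, was the highest. It measured 237, 240.2 and 238 CPM in the control libraries, 251, 266 and 250.4 with IFNg, 264, 259.7 and 246 with TNF, 254, 290.4 and 274 with IL1b, 256, 294 and 304 with LPS and 247, 276 and 262 with hypoxia. The control libraries were the lowest by a small margin, and the 5 treated groups overlapped with each other. Nars was the 1 cytosolic gene called in none of the 5 main comparisons. Its estimate furthest from 0 was 0.16 with LPS, with a 95% interval of -0.06 to 0.37. Ears2, the mitochondrial glutamate enzyme, was the lowest at a mean of 1.89 CPM per kb. It measured 2.47, 2.75 and 1.45 CPM in control, 3.60, 3.83 and 3.55 with IFNg, 3.11, 1.64 and 0 with TNF, 5.26, 3.96 and 5.36 with IL1b, 6.03, 2.69 and 0.906 with LPS and 2.98, 2.38 and 1.62 with hypoxia, and was called in no comparison at this depth. The next genes in the order after Nars were Sars, Kars, Qars and Aars, whose places changed with treatment. Qars, the glutamine enzyme, was above Aars per kb in control (129.6 ± 12.03 against 43.4 ± 3.37), while with TNF Aars was above Qars (156 ± 11.6 against 66.2 ± 5.50, mean ± SD, n = 3).

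**Figure D1:**
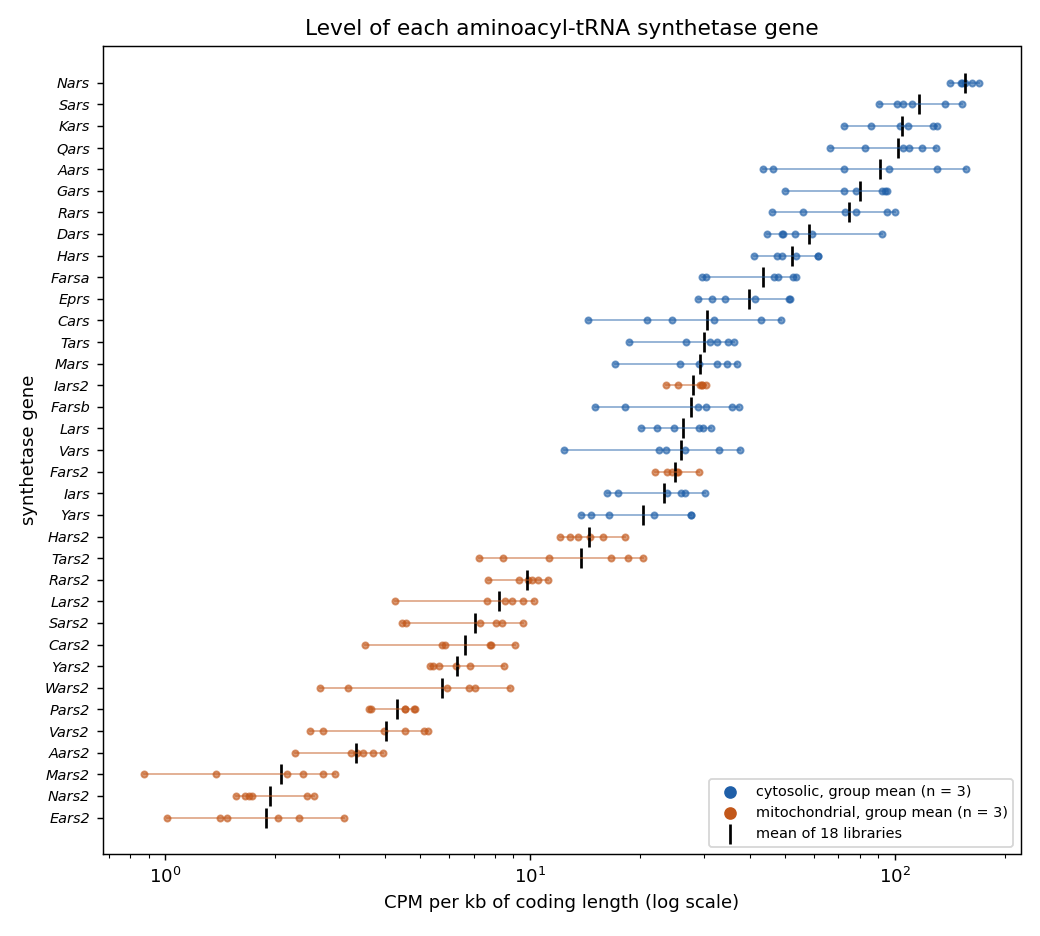
Level of each of the 35 synthetase genes in CPM per kb of coding length (x axis, log scale), with genes in order of their mean over 18 libraries (black tick). Blue points (cytosolic) and orange points (mitochondrial) are means of 3 libraries for each of the 6 groups, and the cytosolic genes fill 17 of the first 19 places.

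With IFNg alone, 7 of the 19 cytosolic genes rose against control, 1 fell (Dars), and of the 16 mitochondrial genes 1 rose (Tars2) and 0 fell. The genes that rose were Gars (log2 change 0.88), Kars (0.81), Aars (0.74), Rars (0.67), Farsa (0.62), Yars (0.57) and Vars (0.50). They charge glycine, lysine, alanine, arginine, phenylalanine, tyrosine and valine, and 2 of them, Kars and Rars, belong to the multi-synthetase complex. In the same comparison 23.6% of all tested genes were called (13.5% higher and 10% lower). The RPKM-total counts were 5 higher and 3 lower for the cytosolic genes and 1 higher and 0 lower for the mitochondrial ones, with Vars and Yars no longer called. The median log2 change was 0.23 over the cytosolic and 0.13 over the mitochondrial genes, beside -0.015 over all genes, and with RPKM totals it was 0.08 and -0.03.

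Gars, whose single gene supplies glycyl-tRNA in both compartments, measured 100.2, 121 and 107 CPM in control and 192, 215 and 198 CPM with IFNg, a 1.84-fold change with log2 0.88 (SE 0.12, adjusted p = 2.16e-06). Kars measured 142, 133 and 146 CPM in control and 228, 249 and 259.9 CPM with IFNg (log2 0.81, SE 0.10, adjusted p = 5.03e-07). For both, every IFNg library was above every control library. Rars, the arginine enzyme, went from 87.8, 86.9 and 98.6 to 149, 132 and 153 CPM (log2 0.67, SE 0.12, adjusted p = 0.000117). Aars, the alanine enzyme, went from 128, 115 and 135 to 191, 209.6 and 232 CPM (log2 0.74, SE 0.12, adjusted p = 1.34e-05). Neither pair of groups overlapped. Tars2, the mitochondrial threonine enzyme, went from 28.2, 21.03 and 25 to 44.2, 40.3 and 37.9 CPM (log2 0.72, SE 0.21, adjusted p = 0.0106), again without overlap, and its call was lost without control library 2 (adjusted p = 0.0605). Dars, the aspartate enzyme, fell from 96.2, 88.02 and 92.3 to 76.2, 64.2 and 67.8 CPM (log2 -0.41, SE 0.15, adjusted p = 0.0446), and this call was lost without any 1 of the 6 libraries other than IFNg 1, with an adjusted p of up to 0.159. The Vars and Yars calls were each lost without any 1 of 3 libraries. These were control 1, control 2 and IFNg 3 for Vars, and control 2, control 3 and IFNg 3 for Yars, with an adjusted p of up to 0.0939 and 0.179.

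The tryptophan enzyme Wars, which is a known interferon-induced gene, stood outside the 35 genes and serves for comparison. Wars rose from 50.8 ± 9.01 to 805 ± 63.5 CPM with IFNg (mean ± SD, n = 3), a log2 change of 3.99 (SE 0.12, adjusted p = 1.44e-19). The largest change among the 35 genes in that comparison was that of Gars at 0.88.

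With TNF added to IFNg, 5 of the 19 cytosolic genes were higher, 6 lower and 8 not called. The mitochondrial genes that were called all fell, 6 of 16. Aars (log2 1.11), Cars (0.99), Sars (0.75), Eprs (0.58) and Rars (0.45) rose, the enzymes for alanine, cysteine, serine, glutamate with proline, and arginine. Vars (-1.60), Farsb (-1.01), Qars (-0.84), Iars (-0.57), Kars (-0.57) and Lars (-0.38) fell. The mitochondrial Wars2 (-1.48), Tars2 (-1.36), Cars2 (-1.36), Lars2 (-1.28), Sars2 (-1.06) and Vars2 (-0.75) fell. Of all tested genes 44.7% were called here, 22.1% higher and 22.6% lower. The cytosolic counts lay near these shares, so a division into higher and lower genes was not particular to the cytosolic synthetases.

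The RPKM-total counts with TNF were 4 higher and 10 lower for the cytosolic genes and 0 higher and 10 lower for the mitochondrial genes. Rars was no longer called. Over all tested genes that scaling gave 1685 higher and 3985 lower, so the move towards lower was not particular to the synthetases. The median log2 change was 0.01 over the cytosolic and -0.54 over the mitochondrial genes, beside -0.05 over all genes. With RPKM totals it was -0.31 and -0.87, so the sign of the cytosolic median depended on the scaling and that of the mitochondrial median did not. The calls that were lost without 1 library were those of Wars2 (IFNg 2 or TNF 1), Lars (IFNg 3) and Vars2 (any but TNF 3), with an adjusted p of up to 0.0561, 0.101 and 0.160.

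Aars had the largest change of the genes that rose. It measured 191, 209.6 and 232 CPM with IFNg and 427, 492 and 444 CPM with TNF, with no overlap, a 2.16-fold change with log2 1.11 (SE 0.12, adjusted p = 8.02e-09). The gene (ENSMUSG00000031960) lies at chr8:111033144-111057664 on the plus strand in mm10, and its promoter carries the element printed above. Cars, the cysteine enzyme at chr7:143557230-143600090 on the minus strand, measured 62.8, 55.6 and 65.3 and 122, 122 and 121 CPM, with log2 0.99 (SE 0.15, adjusted p = 5.15e-06). The 3 TNF libraries lay close together. Sars, the serine enzyme, measured 149.7, 141 and 147 with IFNg and 229, 288 and 219.9 CPM with TNF (log2 0.75, SE 0.11, adjusted p = 2.24e-06), and every TNF library was above every IFNg library.

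Vars, the valine enzyme at chr17:35000987-35016322 on the plus strand, had the largest change in size of the 35 genes with TNF. It fell from 142, 141 and 144 CPM with IFNg to 58.3, 41.7 and 40.6 CPM, 0.330 times the IFNg level, with log2 -1.60 (SE 0.16, adjusted p = 6.72e-09). All 3 TNF libraries were also below the 3 control libraries (90.5, 94.1 and 117 CPM). Farsb, the beta subunit of the cytosolic phenylalanine enzyme, fell from 55.7, 55.9 and 49.8 to 35.3, 23.2 and 21.5 CPM (log2 -1.01, SE 0.18, adjusted p = 5.51e-05). Farsa, its catalytic alpha subunit, measured 70.7, 73.4 and 69.2 and 81.9, 67.4 and 69.1 CPM, and its change of 0.03 had a 95% interval of -0.28 to 0.35. The intervals of the 2 subunits did not overlap (-1.41 to -0.61 for Farsb), although the difference between them was not tested.

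For 2 amino acids the cytosolic and the mitochondrial enzyme were called in opposite directions with TNF. Cars rose while Cars2, the mitochondrial cysteine enzyme, fell from 21, 12.9 and 11.3 to 9.45, 4.40 and 3.69 CPM (log2 -1.36, SE 0.37, adjusted p = 0.00344). Sars rose while Sars2 fell from 16.5, 11.3 and 16.8 to 9.72, 6.70 and 4.87 CPM (log2 -1.06, SE 0.30, adjusted p = 0.00448). The IFNg and TNF libraries did not overlap for either mitochondrial gene. For leucine and valine both enzymes fell. A cytosolic and a mitochondrial gene were listed for 15 amino acids, which make 16 gene pairs because Farsa and Farsb were each set beside Fars2, while Eprs was set beside Ears2 for glutamate and Pars2 for proline. The cytosolic estimate lay above the mitochondrial one in 11 of the 16 pairs with TNF. This was not particular to TNF, since the count was also 11 for IFNg against control and for IL1b, and 12 for LPS. For phenylalanine the 2 subunits gave different answers with TNF, since the estimate was -0.20 for Fars2, 0.03 for Farsa and -1.01 for Farsb.

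Tars2 had the firmest fall among the mitochondrial genes with TNF, by its adjusted p. It went from 44.2, 40.3 and 37.9 to 21.9, 11.9 and 13.7 CPM (log2 -1.36, SE 0.21, adjusted p = 6.25e-06), without overlap, and TNF library 1 lay within the range of the control libraries. Wars2, the mitochondrial tryptophan enzyme, measured 11.2, 11.8 and 5.54 with IFNg and 2.67, 4.54 and 3.06 CPM with TNF (log2 -1.48, SE 0.48, adjusted p = 0.0134), without overlap, at 13 to 215 counts per library over the series. Mars2, the mitochondrial methionine enzyme, measured 6.31, 1.88 and 4.38 and 1.22, 1.05 and 2.35 CPM and did not pass the test (log2 -1.45, SE 0.61, adjusted p = 0.0563).

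**Figure D2:**
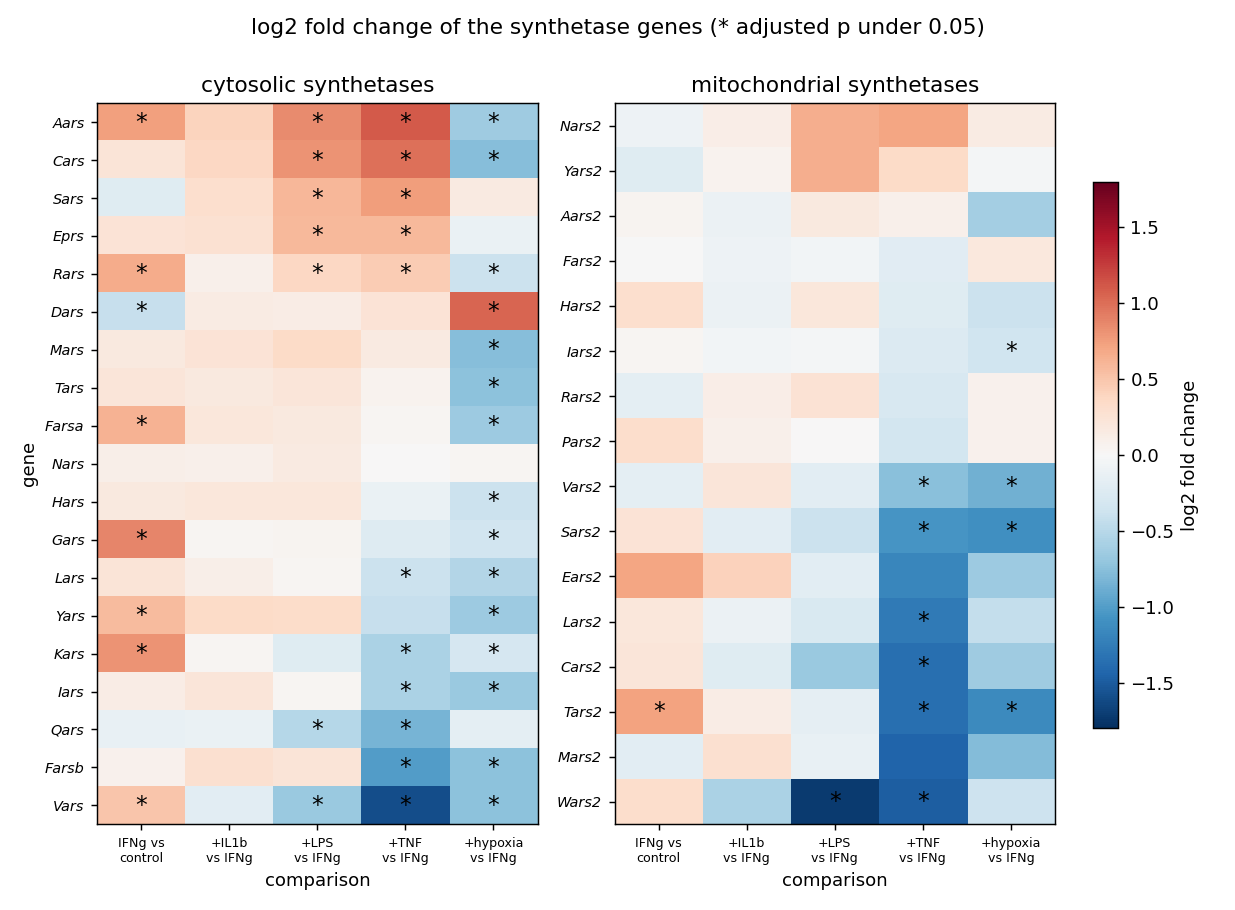
log2 fold change of each synthetase gene (rows, ordered by the change with TNF) in the 5 main comparisons (columns), red for higher and blue for lower, with an asterisk where the edgeR adjusted p was under 0.05. With TNF the cytosolic column runs from 5 genes called higher to 6 called lower, the mitochondrial column has 6 called lower, and in the hypoxia column 14 cytosolic genes are called lower and Dars is called higher.

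With LPS, against IFNg, 5 cytosolic genes rose and 2 fell, and 1 mitochondrial gene fell with 0 higher, where 20.3% of all tested genes were called (10.2% higher, 10.1% lower). The genes that rose, Aars (0.85), Cars (0.81), Sars (0.60), Eprs (0.59) and Rars (0.38), charge alanine, cysteine, serine, glutamate with proline, and arginine. Vars (-0.67), Qars (-0.51) and Wars2 (-1.72) fell. The comparisons with TNF and with LPS share the 3 IFNg libraries, as do those with IL1b and hypoxia. The RPKM-total counts were 4 higher and 3 lower for the cytosolic and 0 higher and 1 lower for the mitochondrial genes, with Rars no longer called. Median log2 changes were 0.20 and -0.09, beside -0.004 over all genes.

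With LPS, Aars measured 339.5, 407 and 391 CPM against 191, 209.6 and 232 with IFNg (log2 0.85, SE 0.11, adjusted p = 2.83e-06). Cars measured 109, 107 and 107 CPM (log2 0.81, SE 0.15, adjusted p = 0.000218) and Sars 208, 221 and 234 CPM (log2 0.60, SE 0.11, adjusted p = 0.000161). None of these 3 genes overlapped with its IFNg libraries. Vars measured 109, 86.2 and 72.7 CPM (log2 -0.67, SE 0.16, adjusted p = 0.00273), below all IFNg libraries and spread over a wider range than they were. Wars2 measured 5.62, 2.09 and 0.906 CPM (log2 -1.72, SE 0.48, adjusted p = 0.0103), with library 1 above the lowest IFNg library, and its call was lost without LPS library 2 or 3 (adjusted p of up to 0.0587). The Rars call was lost without IFNg 1, IFNg 2 or LPS 3 (adjusted p of up to 0.199).

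The direct comparison of TNF with LPS, which does not use the IFNg libraries, called 0 of the 35 genes higher and 9 lower with TNF, where 25.3% of all tested genes were called (13.1% higher, 12.2% lower). The 9 genes were Farsb (-1.25), Tars2 (-1.20), Lars2 (-1.01), Vars (-0.93), Yars (-0.75), Iars (-0.61), Lars (-0.42), Kars (-0.34) and Qars (-0.32). With RPKM totals 19 were lower and 0 higher, beside 2621 lower and 884 higher over all tested genes. Aars, Cars, Sars, Eprs and Rars were not called different between TNF and LPS. For Aars the difference was 0.26 with a 95% interval of 0.01 to 0.51 (adjusted p = 0.0973). For Cars it was 0.18 with an interval of -0.15 to 0.50. The 3 calls of smallest size, for Lars, Kars and Qars, were each lost without at least 1 library: LPS 3 for Lars, TNF 2 or LPS 3 for Kars, and TNF 1, TNF 3 or LPS 2 for Qars, with an adjusted p of up to 0.105.

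IL1b added to IFNg called 0 of the 35 genes in edgeR, where 0.303% of all tested genes, 35 in number, were called (0.268% higher, 0.0346% lower). At an unadjusted p under 0.05 edgeR gave 4 of the 35 genes, beside 596 of all 11563 tested genes. The 4 were Aars (0.41), Cars (0.37), Sars (0.30) and Eprs (0.27), all with a higher estimate. DESeq2 called 1 of the 35 genes (Aars, adjusted p = 0.0489), beside 84 among all genes. It gave no adjusted p to Aars2, Cars2, Ears2, Mars2, Nars2, Pars2, Sars2, Vars2, Wars2 and Yars2, so these could not be called by it. Aars measured 245, 307 and 286 CPM with IL1b against 191, 209.6 and 232 with IFNg, without overlap, and its 95% interval was 0.16 to 0.66 (adjusted p = 0.211). The IL1b libraries of Cars (76.6, 75.7 and 86.04 CPM) also lay above those of IFNg. Over the cytosolic genes the changes ran from -0.19 to 0.41 with a median of 0.20, and over the mitochondrial genes from -0.57 to 0.41 with a median of 0.01, beside -0.001 over all genes.

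With hypoxia 14 of the 19 cytosolic genes fell and 1 rose, and of the 16 mitochondrial genes 4 fell and 0 rose, where 25.2% of all tested genes were called (13.5% higher, 11.8% lower). Mars (-0.77), Cars (-0.77), Farsb (-0.74), Vars (-0.74), Tars (-0.73), Iars (-0.67), Yars (-0.66), Farsa (-0.65), Aars (-0.64), Lars (-0.53), Hars (-0.39), Rars (-0.39), Gars (-0.34) and Kars (-0.30) fell. Dars (1.04) rose, and Nars, Sars, Qars and Eprs were not called. The mitochondrial genes that fell were Tars2 (-1.14), Sars2 (-1.10), Vars2 (-0.86) and Iars2 (-0.36). The RPKM-total counts were 1 higher and 16 lower for the cytosolic and 0 higher and 6 lower for the mitochondrial genes. Over all tested genes that scaling gave 888 higher and 2564 lower. The median log2 change was -0.53 over the cytosolic and -0.41 over the mitochondrial genes, beside -0.01 over all genes. For 3 amino acids both enzymes were called lower, and the cytosolic estimate lay above the mitochondrial one in 5 of the 16 pairs.

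Dars (ENSMUSG00000026356), the aspartate enzyme of the multi-synthetase complex at chr1:128363707-128417368 on the minus strand, measured 76.2, 64.2 and 67.8 CPM with IFNg and 154, 137 and 138 CPM with hypoxia. Every hypoxia library was above every library of the other 5 groups, of which the highest was TNF library 1. The change was 2.06-fold with log2 1.04 (SE 0.15, adjusted p = 5.75e-06). It kept its call without each library, with an adjusted p of up to 0.000113. The other genes of the complex did not rise, with 5 of the 8 lower and Eprs and Qars not called. Mars, the methionine enzyme and also a member of the complex, fell from 84.8, 67.5 and 85.99 to 42.1, 44.9 and 52.8 CPM (log2 -0.77, SE 0.14, adjusted p = 0.000144).

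Cars fell from 62.8, 55.6 and 65.3 to 29.7, 35.2 and 43.3 CPM with hypoxia (log2 -0.77, SE 0.15, adjusted p = 0.000441). Farsb fell from 55.7, 55.9 and 49.8 to 32.5, 27.1 and 36.9 CPM (log2 -0.74, SE 0.18, adjusted p = 0.00333), and here Farsa fell beside it, from 70.7, 73.4 and 69.2 to 47.8, 45.5 and 42.2 CPM (log2 -0.65, SE 0.14, adjusted p = 0.00121). None of these genes overlapped between IFNg and hypoxia. Aars went from 191, 209.6 and 232 to 138, 143 and 124 CPM (log2 -0.64, SE 0.12, adjusted p = 0.000115), and its hypoxia libraries overlapped with the control libraries (128, 115 and 135 CPM). Tars2 fell from 44.2, 40.3 and 37.9 to 20.4, 14.3 and 20.8 CPM (log2 -1.14, SE 0.21, adjusted p = 0.000172) and Sars2 from 16.5, 11.3 and 16.8 to 7.29, 6.38 and 7.10 CPM (log2 -1.10, SE 0.30, adjusted p = 0.00684). Vars2, the mitochondrial valine enzyme, measured 16.8, 13.5 and 13.1 and 9.87, 5.87 and 8.03 CPM (log2 -0.86, SE 0.29, adjusted p = 0.0308), and lost its call without IFNg 1, hypoxia 2 or hypoxia 3. Further calls were lost without 1 library, with an adjusted p of up to 0.139. These were Hars (IFNg 1 or 3, hypoxia 1 or 3), Rars (IFNg 1 or 3, hypoxia 1 or 2), Yars (IFNg 3 or hypoxia 1), Gars (any of the 6), Kars (any but IFNg 1) and Iars2 (any but hypoxia 2). This left 9 lower cytosolic genes without IFNg 3 or hypoxia 1 and 2 lower mitochondrial genes without IFNg 1 or hypoxia 3.

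**Figure D3:**
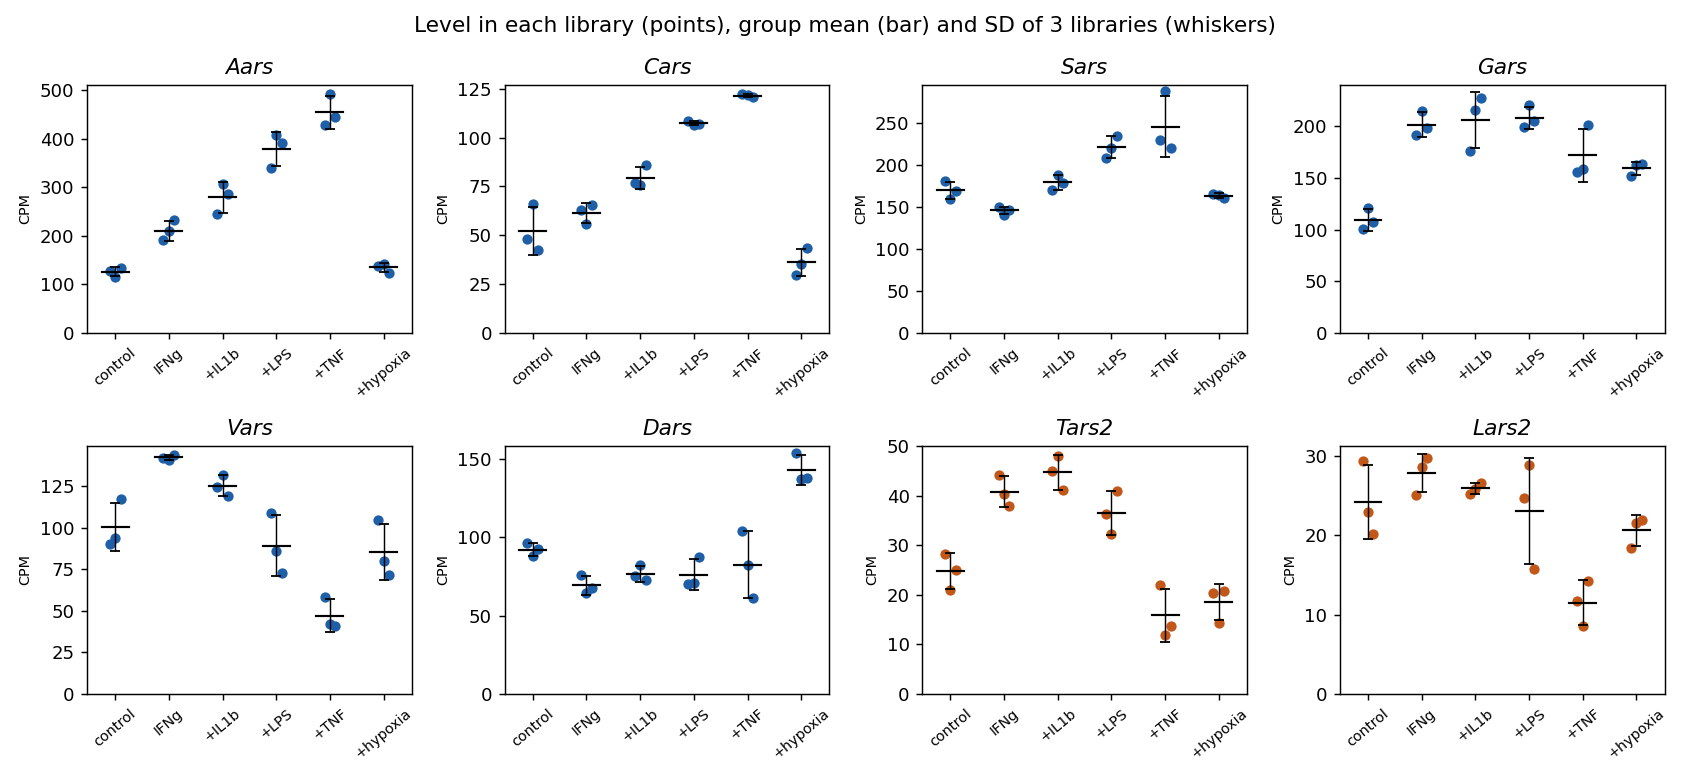
Level in CPM (y axis) of 8 synthetase genes in each of the 18 libraries (points), by group (x axis), with the group mean (bar) and the SD of 3 libraries (whiskers). Aars, Cars and Sars are highest with TNF and LPS, Vars and Lars2 have their lowest mean with TNF, and the 3 hypoxia libraries of Dars stand above all others.

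Compared directly, TNF against hypoxia called 8 of the 35 genes higher and 5 lower, where 39.0% of all tested genes were called (18.9% higher, 20.1% lower). The RPKM-total counts were 8 and 6, beside 1911 and 2583 over all tested genes. Aars (1.75) and Cars (1.75) differed most on the higher side, and Vars (-0.86), Lars2 (-0.84) and Dars (-0.79) on the lower side. LPS against hypoxia called 17 higher and 3 lower, where 30.0% of all tested genes were called (14.4% higher, 15.5% lower). The RPKM-total counts were 22 and 1, beside 2457 and 1319 over all tested genes. Of the 17, 14 were cytosolic, led by Cars (1.58), Aars (1.49), Mars (1.11) and Yars (0.997). The 3 lower genes were Wars2 (-1.34), Dars (-0.91) and Qars (-0.34), of which Dars remained called with RPKM totals. Calls lost without 1 library were Kars for TNF against hypoxia (any but TNF 3) and, for LPS against hypoxia, Wars2 (LPS 2 or 3, hypoxia 2), Aars2 (any but hypoxia 1), Iars2 (LPS 1 or 3, hypoxia 1 or 3), Gars (LPS 2 or hypoxia 1) and Qars (hypoxia 1). Vars, called lower than IFNg under both LPS and hypoxia, differed by 0.06 between them with a 95% interval of -0.29 to 0.41.

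Across all 5 main comparisons 41 of the 95 gene-by-comparison results were called for the cytosolic genes and 12 of the 80 for the mitochondrial genes. Of all tested genes 23.6% were called with IFNg, 44.7% with TNF, 0.303% with IL1b, 20.3% with LPS and 25.2% with hypoxia. The cytosolic and mitochondrial shares do not compare like with like, because the precision differed. The median SE of a log2 change was 0.13 for the cytosolic genes, at 271 to 7691 counts per library, and 0.30 for the mitochondrial genes, at 0 to 1862 counts. Over these comparisons, 4 of which share the IFNg libraries as the reference and 1 of which sets them against control, 9 of the cytosolic genes were called in both directions, 2 only higher, 7 only lower and 1 never. Of the mitochondrial genes 1 was called in both directions, 6 only lower and 9 never. No tally of this kind over all tested genes is given here. The mitochondrial gene called both ways was Tars2, higher with IFNg and lower with TNF and hypoxia. The genes never called were Nars in the cytosol and Aars2, Ears2, Fars2, Hars2, Mars2, Nars2, Pars2, Rars2 and Yars2 in the mitochondrion.

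The summed level of the cytosolic genes over that of the mitochondrial genes, both in CPM per kb, is a ratio within a library and does not depend on how libraries are scaled. It was 5.76, 6.86 and 6.98 in the control libraries and 6.41, 7.35 and 7.41 with IFNg. With TNF it was 9.57, 11.5 and 10.8, above all 6 of those. It was 7.23, 9.37 and 9.15 with LPS, 7.14, 8.26 and 8.59 with IL1b and 7.85, 7.26 and 7.96 with hypoxia. Group means were 6.54 ± 0.671 in control, 7.06 ± 0.562 with IFNg, 10.6 ± 0.969 with TNF, 7.999 ± 0.758 with IL1b, 8.58 ± 1.18 with LPS and 7.69 ± 0.374 with hypoxia (± SD, n = 3). With TNF the mitochondrial sum was 113 ± 10.2 CPM per kb against 161 ± 11.7 with IFNg, while the cytosolic sums were 1190.0 ± 57.8 and 1134 ± 26.7. Unlike their ratio, which is free of scaling, these sums depend on it. With RPKM totals in place of TMM the median cytosolic log2 change with TNF went from 0.01 to -0.31. The CPM ratio of Aars to Vars, also free of scaling, was 1.34, 1.49 and 1.61 with IFNg, 3.11, 4.73 and 5.38 with LPS and 7.33, 11.8 and 10.9 with TNF. It was 1.42, 1.23 and 1.15 in control, 1.97, 2.33 and 2.40 with IL1b and 1.32, 1.78 and 1.73 with hypoxia. This pair was chosen because Aars had the largest called rise and Vars the largest called fall with TNF, so a high ratio with TNF follows from the choice and is given as a description only. The LPS libraries, which the choice did not use, were above every library of control, IFNg, IL1b and hypoxia and below every TNF library. The choice did use the IFNg and TNF libraries, so the order of LPS against those groups is not independent of it.

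**Figure D4:**
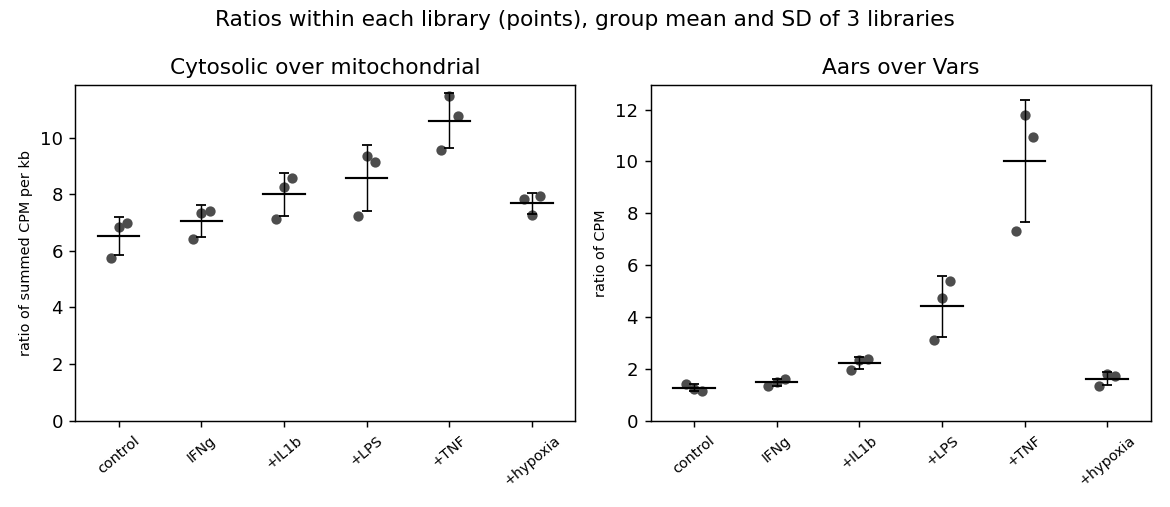
Left, the summed CPM per kb of the 19 cytosolic genes divided by that of the 16 mitochondrial genes in each library, and right, the CPM of Aars divided by that of Vars (y axes start at 0), by group, with the mean and SD of 3 libraries. In both panels the TNF group has the highest mean, which on the right follows from choosing the pair by its change with TNF, and there the LPS group is the next.

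With TNF 2 of the 8 genes of the multi-synthetase complex rose and 4 fell, and 3 of the 11 cytosolic genes outside it rose and 2 fell, where 22.1% of all tested genes were called higher and 22.6% lower. This depended on the scaling: the RPKM-total counts were 1 higher and 4 lower in the complex and 3 higher and 6 lower outside it. Over all tested genes that scaling gave 1685 higher and 3985 lower. With hypoxia 1 rose and 5 fell in the complex and 0 rose and 9 fell outside it, where 13.5% of all tested genes were called higher and 11.8% lower, and the median log2 changes were -0.34 and -0.65. The RPKM-total counts were 1 and 7 in the complex and 0 and 9 outside it. With IFNg they were 2 and 2 in the complex, beside 2 and 1 in the main test, and 3 and 1 outside it, beside 5 and 0. With LPS they were 1 and 2 in the complex, beside 2 and 1. Of the scaffold genes, Aimp1 fell with TNF from 76.6 ± 7.04 to 39.3 ± 1.34 CPM (log2 -0.96, SE 0.13, adjusted p = 4.03e-07), and its log2 change with LPS was -0.53. Aimp2 rose with TNF from 17.4 ± 1.36 to 36.1 ± 7.79 CPM (log2 1.06, SE 0.20, adjusted p = 0.000104), and with hypoxia by 0.90 on the log2 scale. Eef1e1 was called in none of the 5 main comparisons, although with RPKM totals 2 of the 3 scaffold genes were lower with TNF and 1 was lower with hypoxia.

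Genes that act beside the synthetases were taken from further lists. Over all tested genes, the share called higher was 13.5% with IFNg, 22.1% with TNF, 10.2% with LPS and 13.5% with hypoxia. The share called lower was 10%, 22.6%, 10.1% and 11.8% in that order. All 3 genes of the mitochondrial amidotransferase that finishes glutaminyl-tRNA, in place of a glutamine synthetase, fell with TNF. Gatb changed by -1.48, Gatc by -2.00 and Qrsl1 by -1.23, and with hypoxia Qrsl1 changed by -1.70 as the 1 of 3 called. Of the 5 cytosolic elongation factors that bring charged tRNA to the ribosome or move it, 4 fell with TNF, 3 with LPS and 2 with IFNg, and 1 rose with hypoxia. Eef1d, an exchange factor subunit, changed by -1.20 with TNF and -0.83 with LPS. Of the 4 mitochondrial elongation factor genes 1 (Gfm1) rose with IFNg, and 0 were called with any addition in edgeR. Wars fell with TNF (-0.72) and LPS (-0.73) and rose with hypoxia (0.57). Of 3 tested free-standing tRNA editing genes, Dtd1 and Dtd2 fell and Prorsd1 rose with TNF, and Prorsd1 rose with hypoxia, although the TNF call of Prorsd1 was lost with RPKM totals. Of the 6 eIF2alpha kinase and phosphatase subunit genes 3 rose and 1 fell with TNF and 2 rose and 1 fell with LPS. Ppp1r15a and Ppp1r15b, which direct the phosphatase, were the 2 that rose with LPS and the 2 that rose with hypoxia, and with TNF Eif2ak2 rose beside them. Eif2ak3 fell with TNF and with LPS. Scaled by RPKM totals, the counts higher and lower were 0 and 2 for the cytosolic elongation factors with hypoxia. They were 0 and 0 for the mitochondrial ones with IFNg, 0 and 1 with TNF and 0 and 3 with hypoxia. For the eIF2alpha list they were 2 and 2 with TNF, 1 and 1 with IFNg (beside 1 and 0) and 2 and 1 with hypoxia. For the editing genes they were 0 and 1 with IFNg (beside 0 and 0) and 1 and 1 with hypoxia.

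Of 20 genes of the ATF4 and amino acid response, 10 rose and 2 fell with IFNg, 11 rose and 1 fell with TNF, 2 rose with IL1b, 7 rose and 1 fell with LPS, and 7 rose and 7 fell with hypoxia. Over all tested genes the shares called were 23.6%, 44.7%, 0.303%, 20.3% and 25.2% in that order. With RPKM totals the counts were 9 and 3, 10 and 1, 2 and 0, 7 and 1, and 6 and 8, in the same order. Some calls rested on few counts, given here as totals over 3 libraries. With IFNg Slc7a11 fell from 27 to 1 and Chac1 rose from 0 to 46. With hypoxia Chac1 fell from 46 to 0 and Slc7a11 rose from 1 to 13. Atf4 itself measured 144 ± 6.83 CPM in control, 184 ± 16.6 with IFNg, 281 ± 17.3 with IL1b, 388 ± 54.2 with LPS, 538 ± 64.9 with TNF and 211 ± 18.1 with hypoxia (mean ± SD, n = 3). Its log2 change was 1.55 (SE 0.12, adjusted p = 3.41e-11) with TNF, 1.08 with LPS and 0.61 with IL1b, all called, and 0.20 with hypoxia, not called. Asns, the asparagine synthetase that is a standard target of ATF4, rose with IFNg (1.01), TNF (1.37), IL1b (1.17) and LPS (1.47) and fell with hypoxia (-2.33). Trib3, another target, rose with IFNg (1.17), TNF (2.53), LPS (1.47) and hypoxia (1.61). Of the 3 tested genes of the MYC network, Max and Mxd1 rose with IFNg and Mxd1 rose with TNF, LPS and hypoxia, while Myc was not called in any main comparison. With RPKM totals Mxd1 was no longer called with IFNg, which left 1 of the 3 higher there, and Max was called lower with TNF.

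The 5 genes with the printed element, Aars, Gars, Iars, Tars and Yars, did not move as a block. With TNF Aars rose, Iars fell, and Gars (-0.23), Tars (0.06) and Yars (-0.41) were not called. With IFNg Aars, Gars and Yars rose and Iars (0.13) and Tars (0.21) were not called. With hypoxia all 5 fell, where 14 of the 19 cytosolic genes fell. Of the cytosolic genes with a window and no match, Sars and Eprs rose with TNF and LPS. Qars fell with both, Farsb and Kars fell with TNF only of these 2 additions, and Dars and Farsa were called with neither. A link between the element and these changes was not tested.

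Markers of other cell types moved with the same treatments. All 10 neutrophil and granulocyte precursor markers had counts somewhere in the series. Their summed level was 109.1 to 166 CPM over the control libraries, 108 to 129.9 with IFNg, 11 to 14.99 with TNF, 28.9 to 44.4 with LPS, 66.4 to 95.01 with hypoxia and 85.7 to 100.5 with IL1b. Of the 9 that were tested, 9 fell with TNF, 7 with LPS and 1 with IFNg, and Elane was at 0 in every TNF and LPS library. Of all tested genes 22.6%, 10.1% and 10% were called lower in these comparisons, in that order. With hypoxia 0 of the 9 markers were called, while 2 (Mpo and S100a9) were lower with RPKM totals. That scaling called 2564 of all tested genes lower with hypoxia. Of 6 B cell markers 3 had counts and 2 were tested, and the summed level was 574 to 749.7 CPM in control, 505 to 579 with IFNg, 7.28 to 12.6 with TNF, 63.3 to 109.6 with LPS, 249.6 to 283 with hypoxia and 451 to 477 with IL1b. Nearly all of that sum was Ighm, at 534 ± 36.2 CPM with IFNg, 9.31 ± 2.30 with TNF and 247 ± 17.3 with hypoxia. The other tested B cell marker, Cd79b, fell with TNF and LPS as Ighm did, but rose with hypoxia from 5.52 ± 1.24 to 14.3 ± 2.09 CPM (adjusted p = 0.0379, and 0.0783 with RPKM totals). The defining markers Ms4a1 and Pax5 were at 0 in all 6 groups.

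The defining T cell markers Cd3e, Cd3d and Cd3g, the NK cell markers Ncr1 and Klrb1c and the globin genes Hba-a1 and Hbb-bs were at 0 in all 6 groups. The 2 tested T cell markers were Cd247 and Cd4. Cd247 was called higher with TNF, from 0.321 ± 0.283 to 2.90 ± 1.73 CPM (adjusted p = 0.0353, and 0.0519 with RPKM totals). That was 15 counts over the IFNg libraries and 142 over the TNF libraries. Cd4 was not called in any main comparison. Klrk1, the 1 of 3 NK cell markers with counts, rose with IFNg from 0.625 ± 0.996 to 85.1 ± 9.59 CPM (adjusted p = 5.96e-09) and fell to 19.9 ± 1.72 with TNF. Of the 3 endothelial markers Pecam1 rose with IFNg from 0.547 ± 0.482 to 24.1 ± 3.36 CPM (adjusted p = 2.62e-09) and fell with TNF and LPS, while Kdr rose with TNF and LPS and fell with hypoxia. The summed level of the 5 dendritic cell markers was 4.58 to 5.35 CPM in control, 6.31 to 10.3 with IFNg and 32.8 to 48.6 with TNF, and the rise with TNF lay in Ccr7, which went from 1.14 ± 1.45 to 37.5 ± 8.25 CPM. Xcr1, Flt3 and Siglech had lower estimates with TNF, none of them called, and the median log2 change of the list was -1.19. With RPKM totals Xcr1 was called lower (adjusted p = 0.0261). Xcr1 rose with IFNg from 0 in control to 4.31 ± 1.88 CPM. Pf4, a megakaryocyte marker, rose with hypoxia from 25.5 ± 3.68 to 58.5 ± 10.9 CPM. Mast cell and fibroblast markers summed to at most 5.05 and 11.5 CPM in a library. The part of these cells in the synthetase values was not tested.

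Reads of 50 bases could in principle match more than 1 gene. Of all 50-base words in the annotated coding sequences of the 35 genes, none was shared between members. Iars shared 9.96% of its words with the gene Gm4849, so its counts could be split between them, and no other member shared a word with another gene. Some members overlap a neighbouring gene in position, but no coding base of a member lay in the coding part of another gene.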

How the data were processed

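RNA-seq of 18 libraries, 3 in each of 6 groups, was used. Per the labels' protocols, libraries were made with the TruSeq Stranded mRNA kit and sequenced as single-end reads; GSNAP and mm10 are named in the submitters' processing notes, while the counter, its strand setting and the annotation were not given in the sources used here. The authors deposited a whole-number count, a gene width and an RPKM value per gene for each library. The widths are mostly coding lengths, since 86.7% are multiples of 3, so CPM per kb is per kb of coding length. The deposited RPKM values were used to recover each library's total (22728833 to 39859629), of which the counts per gene made up 51.7 to 56.4%. Replicate numbers come from the sample titles, and no 2 replicates were copies of each other, with a chi-square per degree of freedom of at least 11.9.

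Ensembl IDs were given symbols with GENCODE M21, which named 22534 of 22598 genes. Counts were tested with edgeR 4.0.16 (quasi-likelihood test, robust, TMM, filterByExpr; R 4.3.3, limma 3.58.1) in 1 model with a mean for each of the 6 groups and 12 residual degrees of freedom, with Benjamini-Hochberg adjustment over 11563 genes and a threshold of 0.05. The script was tested on simulated counts. Intervals are 95% intervals. Alternatives were size factors by the DESeq2 method, RPKM totals, no filter, DESeq2 1.42.0, only the libraries compared, a replicate block, and leaving out each library in turn. Per-library values are given for up to 4 cytosolic and 3 mitochondrial genes with the largest called change per comparison, for pairs called in opposite directions, and for the highest and lowest gene per kb. Library values outside this rule were chosen after they were seen: Farsa and Mars2, Dars with IFNg, Aars and Cars with IL1b, and Aars with hypoxia. The members, gene lists and marker lists were chosen with earlier results of these data known.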

Additional observations from a re-analysis of the deposited data

How the results depend on the processing

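Of the 53 calls of synthetase genes in the 5 main comparisons, 36 were kept under every alternative and without each library, 16 were lost without at least 1 library, 8 were lost under at least 1 other setting, and 0 reversed. The calls lost were 4 with RPKM totals, 2 without the filter, 2 with only the libraries compared, 1 with size factors by the DESeq2 method, and 0 with DESeq2. They concerned Vars and Yars with IFNg, Rars and Vars2 with TNF, Rars with LPS, and Gars, Kars and Iars2 with hypoxia. With RPKM totals, the number of lower cytosolic genes was 3 with IFNg and 10 with TNF, and that of lower mitochondrial genes was 10 with TNF. With the same totals 19 genes were lower with TNF than with LPS, and 1 was lower with LPS than with hypoxia. Over all tested genes these totals called 1796 lower with IFNg and 3985 with TNF. They called 2621 lower for TNF against LPS and 1319 for LPS against hypoxia. DESeq2 gave 1 higher cytosolic gene with IL1b. Without 1 library each, the lower cytosolic genes with IFNg numbered 0 to 1 and the higher mitochondrial genes 0 to 1, the lower mitochondrial genes with LPS 0 to 1, and with hypoxia the lower cytosolic genes 9 to 12 and the lower mitochondrial genes 2 to 3. Leaving out a library leaves fewer samples; the cause of the other changes was not tested. Same-numbered libraries of different groups did not deviate together throughout, with correlations of -0.095 to 0.233 over 45 pairs, 9 of them over 0.1, although 12 of 18 libraries correlated best with their own number. The replicate block therefore rests on the number alone, and with the block 0 of the 53 calls were lost. Mitochondrial genes were measured at 0 to 1862 counts per library, which limits what could be called there.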
